A study of Zea mays with 3 samples.

Results

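The plasma membrane intrinsic proteins (PIPs) are the aquaporins of the plasma membrane, and 9 maize genes of this family were followed on the arrays of Urea+NBPT roots. The genes were taken from a list of identifiers, and every array transcript whose gene identifier was on that list was kept, which gave 17 transcripts with 42 probes out of 59756 transcripts of 39219 genes. The RefSeq maize gene table lists the identifiers of all 9 genes as synonyms (assembly Zm-B73-REFERENCE-NAM-5.0). Its names place 3 in the PIP1 group and 6 in the PIP2 group. Below, the family and its groups mean these 9 listed genes only, and PIP genes outside the list were not counted. The study asked how the urease inhibitor NBPT alters transcription in roots of urea-fed maize. The arrays used here come from 1 group of 3 replicates, roots of cv. PR33T56 kept for 8 h in 0.5 mM urea with 0.897 μM NBPT, started when the plants were 5 days old. Each replicate was a pool of 6 plants from a separate experiment, and the labels call the cultivar a hybrid while the methods call it an inbred line. By their image identifiers the 3 arrays were on 1 slide. Arrays of roots without NBPT were not analysed here, so no effect of NBPT is given and no test between conditions was possible.

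Aquaporins form channels through which water, and in some members small uncharged solutes such as urea or hydrogen peroxide, cross membranes. In maize the PIP2 proteins form active water channels when expressed alone in frog oocytes, whereas PIP1 proteins do so poorly and reach the plasma membrane together with PIP2 partners. In roots these channels carry a part of the water that moves from the soil solution through cells to the xylem.

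The names of these genes differ between sources. The study calls GRMZM2G014914 PIP2;2, while RefSeq lists it as ZmPIP2-1 and gives the name ZmPIP2-2 to GRMZM2G092125. The RefSeq names are used here. Probe sequences were not used here, and the sequences shown are the primers that the study designed for real-time RT-PCR of the transcript GRMZM2G014914_T03, because this transcript carried the largest difference between replicates in the family. They run from 5′ to 3′, and no base is set in capitals.
Forward primer: cgccgtcatctacaacaagg
Reverse primer: tgagatcgcgtcgtcatagt

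The probe intensities were corrected for background, quantile normalized and summarized to 1 log2 level per transcript. A transcript counted as detected where each of the 3 arrays put its level above the 95th percentile of 1663 probes of random sequence, a limit of 8.24, 8.30 and 8.24 (log2) for replicates 1, 2 and 3. Levels of different transcripts are not compared as amounts of mRNA, since probes bind with different strength. Across all transcripts the replicates correlated at 0.978 to 0.99. As a check of the tissue, 7 root names and 4 pollen names were sought, of which 3 and 2 genes were found on the array. Detected were 5 of 5 transcripts of the root genes rtcs1, rth3 and ys1 and 0 of 3 of the pollen genes EXPB1 and mgs1. Of the leaf list, 9 of 15 transcripts were detected, among them transcripts listed as pep1, me3 and pdk1, while 1 transcript each under the names pep1 and pdk1 was not detected, and neither were those of ssu1 and rca1, the small subunit and the activase of Rubisco.

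Every gene of the list had a detected transcript in these roots, as did 26618 of the 39219 genes on the array. Replicate 2 differed from the others by over 1 on the log2 scale in 3 transcripts of the PIP2 group. Whether probes of a gene also bind mRNA of other PIP genes was not checked, as their sequences were not used. Of the 17 transcripts 16 were detected (94.1%), where 62.6% of all array transcripts were. In replicate 2 the transcripts GRMZM2G014914_T03 (ZmPIP2-1), GRMZM2G092125_T02 (ZmPIP2-2) and GRMZM2G047368_T01 (ZmPIP2-6) lay 2.13, 1.67 and 1.40 above the mean of the other replicates on the log2 scale, or 4.38-, 3.17- and 2.64-fold. Each of these genes had at least 1 further transcript in which replicate 2 differed from the others by no more than 0.33. In ZmPIP2-2 and ZmPIP2-6 that transcript was read mostly or only from bright probes, where differences between samples can be hidden. Whether this happened here was not tested.

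**Figure D1:**
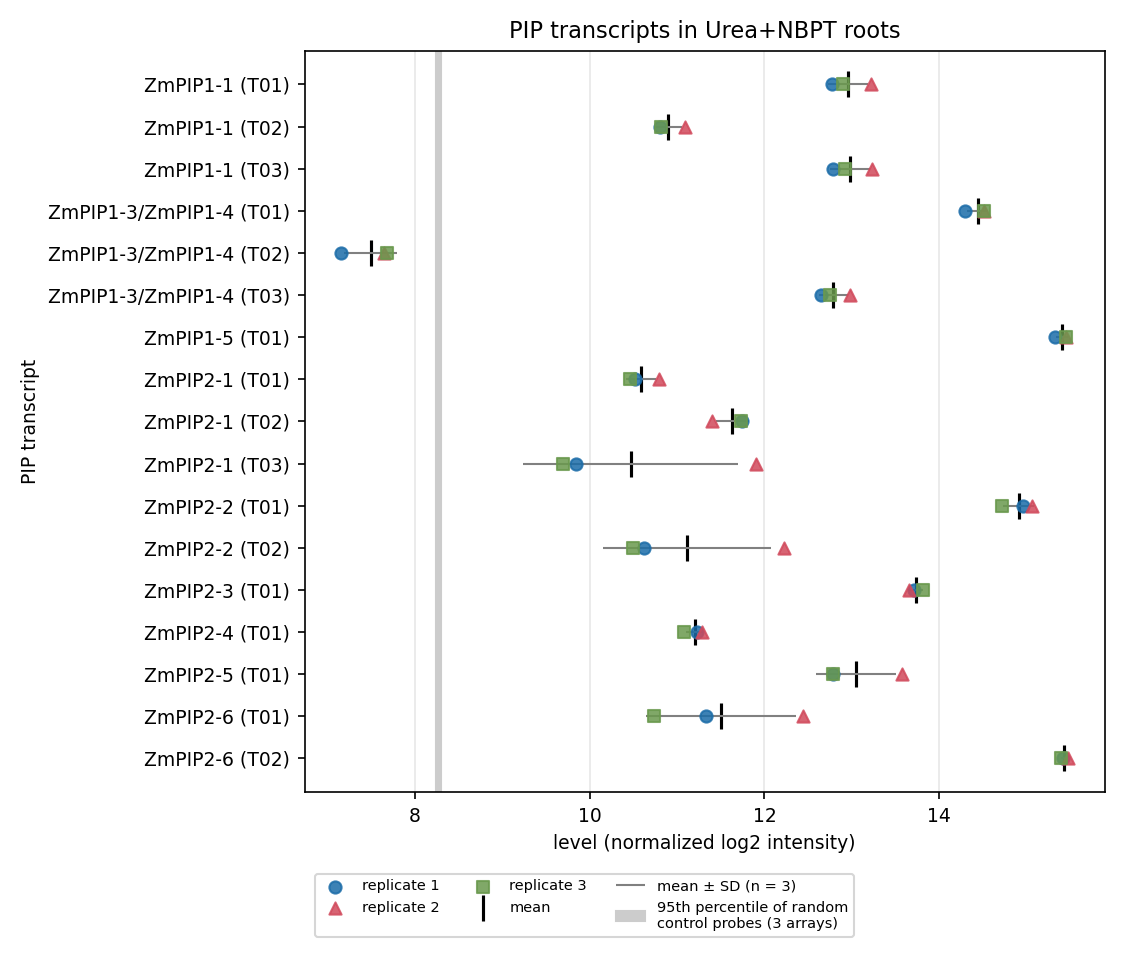
Level of each PIP transcript in Urea+NBPT roots as normalized log2 intensity (x axis), with 1 point per replicate, the mean as a vertical mark and the SD over 3 replicates as a line. The grey band marks the 95th percentile of the controls (8.24 to 8.30 over the 3 arrays), and only T02 of ZmPIP1-3/ZmPIP1-4 lies below it.

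The PIP1 group of the list had 3 genes and 7 transcripts, of which 6 were detected. ZmPIP1-1 (GRMZM2G174807) was represented by 3 transcripts, and GRMZM2G174807_T03 had 12.78, 13.23 and 12.92 in replicates 1, 2 and 3, with a mean of 12.98 ± 0.23 (SD, n = 3). Replicate 2 was the highest in each of its transcripts, by 0.28 to 0.38 over the mean of the others, and the SD of the transcripts ranged from 0.16 to 0.23. In GRMZM2G174807_T02 the probes disagreed about the replicates. The probe at position 667 of the transcript had deposited intensities of 1374, 2516 and 1811 in replicates 1, 2 and 3, highest in replicate 2, and the probe at position 1065 had 2268, 1857 and 1781, highest in replicate 1.

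RefSeq lists ZmPIP1-3 and ZmPIP1-4 as names of 1 gene, GRMZM2G392975. Its transcript GRMZM2G392975_T01 had levels of 14.30, 14.51 and 14.51 in replicates 1, 2 and 3 (14.44 ± 0.12, SD, n = 3), with replicate 1 the lowest. GRMZM2G392975_T03 had a mean of 12.79 ± 0.17 (SD, n = 3). GRMZM2G392975_T02 was the only transcript of the family not called detected, with 7.15, 7.64 and 7.68 in replicates 1, 2 and 3, which lies below the control percentile in every array. Its probes at positions 107 and 116 had deposited intensities of 96.0 to 335, against a 95th percentile of 285, 299 and 285 for the random controls in replicates 1, 2 and 3. A low signal in such probes does not show that the transcript is absent.

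ZmPIP1-5 (GRMZM2G081843), known as one of the PIP genes with much mRNA in maize roots, has 1 transcript with 3 probes. It had levels of 15.33, 15.45 and 15.45 in replicates 1, 2 and 3 (15.41 ± 0.07, SD, n = 3), so that the replicates lay within 0.12 of each other. Its probes at positions 850 and 1179 reached 50937 and 47968, near the highest intensity of any probe on the arrays, 59380. Intensities this close to the upper end of the scale can hide differences between samples. The dimmer probe at position 50 had 22547, 32215 and 28647 in replicates 1, 2 and 3, lowest in replicate 1 and highest in replicate 2. Among the 42 probes of the family 5 passed 40000 in at least 1 array, a value that 0.165% of all probes passed in replicate 1.

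In the PIP2 group of the list all 10 transcripts of 6 genes were detected. ZmPIP2-1 (GRMZM2G014914) had the transcript with the largest excess of replicate 2 in the family, beside others of the same gene without it. GRMZM2G014914_T03 had 9.84, 11.90 and 9.69 in replicates 1, 2 and 3, with a mean of 10.47 ± 1.23 (SD, n = 3). Replicates 1 and 3 lay within 0.15 of each other and replicate 2 stood far above both. GRMZM2G014914_T01 had 10.52, 10.79 and 10.46 in the same arrays (10.59 ± 0.17, SD, n = 3) and GRMZM2G014914_T02 had 11.74, 11.40 and 11.73 (11.63 ± 0.19, SD, n = 3). Replicate 2 was thus slightly the highest in T01 and the lowest in T02, 0.30 above and 0.33 below the mean of the others. The value for T03 exceeded that of 99.6% of all array transcripts, which is given as a description of these arrays.

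The probes of T03, the transcript for which the primers above were designed, moved together. At position 1230 the deposited intensity was 899, 4122 and 808 in replicates 1, 2 and 3. At position 1419 it was 298, 1292 and 168, and at position 1648 it was 1669, 6796 and 1901. Replicate 2 was therefore 4.84, 5.77 and 3.81 times the geometric mean of the other replicates in the 3 probes. The ratio of 5.77 is set against intensities at background, since at position 1419 replicate 3 lay below the control percentile of 285 and replicate 1 just above it. The probes of T02, at positions 1199, 1214 and 1249 of that transcript, gave ratios of 1.03, 0.75 and 0.79. Positions are counted within each transcript, and whether probes of different transcripts bind a shared exon could not be read without their sequences. In T01 the probes at positions 1616 and 1720 gave 1.23 and 1.08. Its probe at position 1827 gave 2.02, from intensities of 71.5, 141 and 68.2 in replicates 1, 2 and 3, which lie below the control percentile.

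**Figure D2:**
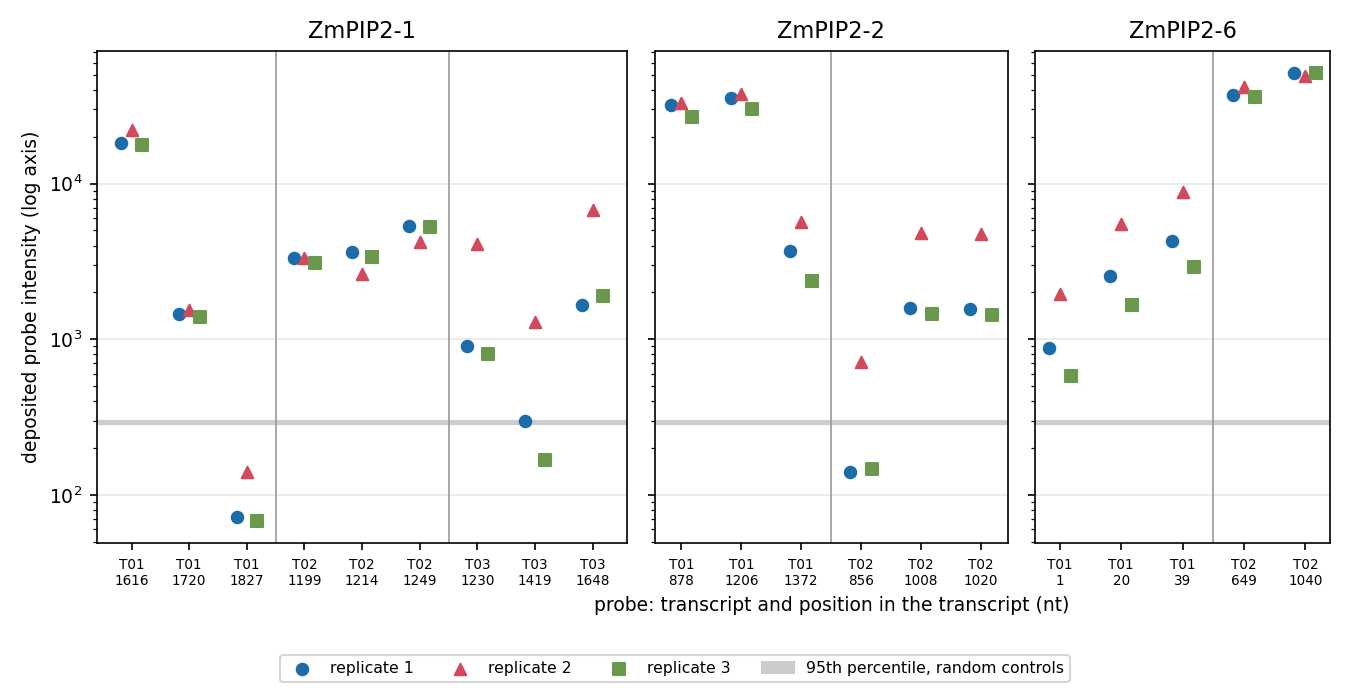
Deposited intensity (y axis, log scale) of every probe of ZmPIP2-1, ZmPIP2-2 and ZmPIP2-6 in the 3 replicates, with the transcript and the probe's position in it along the x axis and the control percentile as a grey band. Replicate 2 stands above the others in all 9 probes of ZmPIP2-1 T03, ZmPIP2-2 T02 and ZmPIP2-6 T01, and lies close to them in most other probes of these genes.

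ZmPIP2-2 (GRMZM2G092125) also had a transcript with a large excess of replicate 2, beside another with a smaller excess. GRMZM2G092125_T02 had levels of 10.62, 12.22 and 10.49 in replicates 1, 2 and 3 (11.11 ± 0.96, SD, n = 3), with replicates 1 and 3 within 0.13 of each other. GRMZM2G092125_T01 had 14.96, 15.06 and 14.72 (14.91 ± 0.18, SD, n = 3), and there replicate 2 exceeded the mean of replicates 1 and 3 by 0.22. In T02 the probe at position 856 had intensities of 140, 712 and 146, the probe at position 1008 had 1585, 4848 and 1451, and the probe at position 1020 had 1559, 4739 and 1425. Replicate 2 was 3.20 and 3.18 times the geometric mean of the others at positions 1008 and 1020. At position 856 the ratio was 4.98, but replicates 1 and 3 lay below the control percentile there, so its size is set against background. In T01 the bright probes at positions 878 and 1206 had ratios of 1.12 and 1.16, at intensities of 26935 to 37857, where differences between samples can be hidden. The dimmer probe at position 1372 had 1.93, from 3701, 5709 and 2352 in replicates 1, 2 and 3. With the mean of the probes in place of median polish, replicate 2 of T01 exceeded the mean of the others by 0.44.

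ZmPIP2-6 (GRMZM2G047368) also had a transcript that differed from its other one. GRMZM2G047368_T01 had 11.33, 12.44 and 10.74 in replicates 1, 2 and 3 (11.50 ± 0.86, SD, n = 3). Here replicate 1 also stood 0.59 above replicate 3, the largest difference between these replicates in the family. GRMZM2G047368_T02 had 15.42, 15.47 and 15.39 (15.43 ± 0.04, SD, n = 3), from probes near the upper end of the intensity scale, where differences between samples can be hidden. All 3 probes of T01 lie in the first bases of that transcript, at positions 1, 20 and 39, and gave ratios of 2.76, 2.68 and 2.51. Probes this close to each other can bind overlapping sequence, and they are not independent measures. The T02 probes at positions 649 and 1040 gave 1.15 and 0.96, at intensities of 36118 to 51332. In the order of genes on the reference assembly ZmPIP2-1 and ZmPIP2-6 are close neighbours, with 2 genes between them.

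ZmPIP2-5 (GRMZM2G178693), whose mRNA and protein are known from the exodermis and endodermis of maize roots, had a smaller difference of the same direction. Its single transcript had 12.78, 13.58 and 12.78 in replicates 1, 2 and 3 (13.05 ± 0.46, SD, n = 3), so replicate 2 was 0.80 higher than the mean of its companions. This rested on 1 of its 2 probes. The probe at position 7 had 1672, 4824 and 1618 in replicates 1, 2 and 3, a ratio of 2.93, while the probe at position 944 had 29460, 30904 and 30058, a ratio of 1.04.

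In ZmPIP2-3 and ZmPIP2-4 the replicates lay close together. ZmPIP2-3 (GRMZM2G081192) had 13.71, 13.65 and 13.82 in replicates 1, 2 and 3 (13.73 ± 0.09, SD, n = 3), with replicate 2 the lowest. Its probe at position 190 stayed under the control percentile in all arrays, at 68.7 to 109, although its other probes were bright. The probe at position 466 had 12785, 17844 and 14441 in replicates 1, 2 and 3, highest in replicate 2. The probe at position 1316 had 36250, 34755 and 39087, lowest in replicate 2. ZmPIP2-4 (GRMZM2G154628) had 11.23, 11.28 and 11.08 (11.20 ± 0.10, SD, n = 3), and replicate 2 exceeded the mean of the others by 0.12.

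Over the 9 listed genes, replicate 2 exceeded the others' mean by over 1 on the log2 scale in 3 of 17 transcripts. It did so in 2.26% of all array transcripts. Replicates 1 and 3 did so in 0 PIP transcripts, with 0.228% and 0.452% over the array. Replicate 3 fell short of the others' mean by over 1 in 2 PIP transcripts, GRMZM2G014914_T03 and GRMZM2G047368_T01, with 0.857% over the array, and in both the high value of replicate 2 is part of that mean. Replicates 1 and 2 were that far below in 0 PIP transcripts, with 0.778% and 0.45% over the array. The range over the replicates passed 1 in the same 3 transcripts that were high in replicate 2, and in 5.02% of all transcripts. The 3 transcripts with the large difference were all PIP2, 3 of 10, against 0 of 7 in PIP1, a difference between groups that was not tested because transcripts of a gene share their source.

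Smaller differences of replicate 2 also ran mostly upward in this family. It exceeded the others' mean in 15 of 17 PIP transcripts, in 7 of 7 of the PIP1 group and in 8 of 10 of the PIP2 group. Over the array it did so in 45.3% of all transcripts. Transcripts of a gene are not independent counts. GRMZM2G174807_T01 and GRMZM2G174807_T03, for example, had nearly the same level in each replicate. Set against replicate 3 alone, replicate 2 was higher in 13, because GRMZM2G392975_T01 and GRMZM2G392975_T02 of ZmPIP1-3/ZmPIP1-4 came to -0.01 and -0.04. The median difference of replicate 2 was 0.28 over the PIP transcripts, 0.28 in PIP1 and 0.26 in PIP2, and -0.03 over all transcripts. That of replicate 1 was -0.22 in PIP1 and -0.07 in PIP2, and that of replicate 3 was -0.06 and -0.24. Replicate 1 lay below the others' mean in every PIP1 transcript, and its low value is part of the mean that replicate 2 is set against. The median of replicate 1 minus replicate 3 was 0.01 over the PIP transcripts, with a range of -0.53 to 0.59. This difference was negative in every PIP1 transcript, from -0.53 to -0.02. In PIP2 it was positive in every transcript except GRMZM2G081192_T01 (-0.11). The median SD of the PIP transcripts was 0.18, close to that of all transcripts (0.17). It was 0.10 without replicate 2, 0.21 without replicate 1 and 0.23 without replicate 3. An SD over so few arrays is imprecise.

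**Figure D3:**
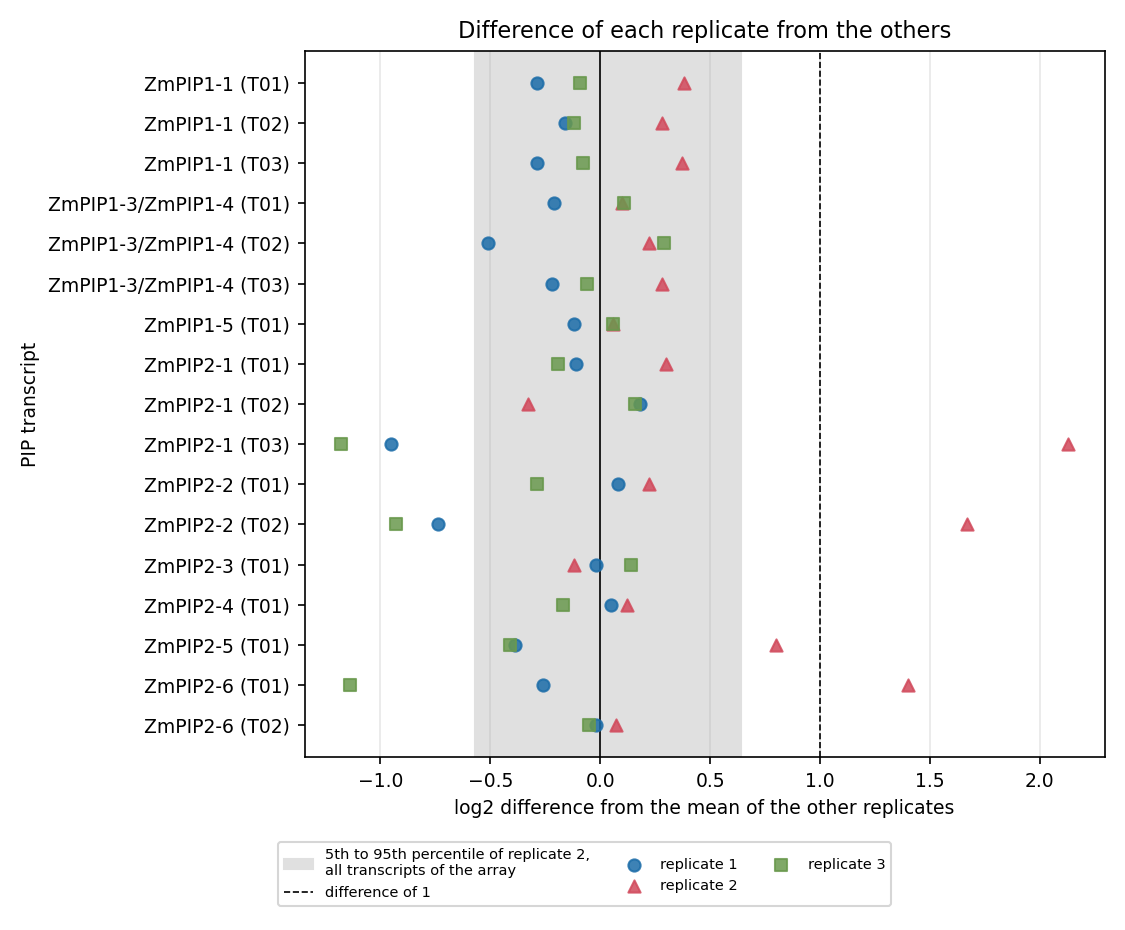
Log2 difference of each replicate from the mean of the other replicates (x axis) for each PIP transcript, with a grey band from the 5th to the 95th percentile of replicate 2 over all array transcripts (-0.57 to 0.64) and a dashed line at 1. Replicate 2 lies right of 0 in 15 of 17 transcripts and beyond the dashed line in 3.

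Among single probes, replicate 2 exceeded 2-fold of the geometric mean of the others in 11 of the 42 PIP probes (26.2%), where it did so in 3.83% of all array probes. Replicates 1 and 3 passed the same ratio in 0 PIP probes, with 0.779% and 1.38% over the array. The 11 probes include all 9 of GRMZM2G014914_T03, GRMZM2G092125_T02 and GRMZM2G047368_T01 and 2 of the other 33, those of ZmPIP2-5 at position 7 and of GRMZM2G014914_T01 at position 1827. All of them were probes of lower intensity. Of the 17 PIP probes with a geometric mean above 10000 over the arrays 0 passed 2-fold, where 0.202% of all probes that bright did, and their log2 ratios ranged from -0.12 to 0.39. Of these bright PIP probes 13 were higher in replicate 2, where 46.6% of all bright probes were.

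Of the 20 PIP probes between the control percentile and 10000, 9 passed 2-fold, where 3.66% of all probes in that range did. The other 2 of the 11, GRMZM2G092125_T02 at position 856 and GRMZM2G014914_T01 at position 1827, were among the 5 PIP probes whose geometric mean was at or under the control percentile, where 4.82% of all probes passed. Place in the transcript was recorded too. Of the 7 PIP probes within the first 50 bases, 4 passed 2-fold in replicate 2, and of the 35 further in, 7 did. Over the array these shares were 3.47% and 3.86%. The part of brightness or place in the differences of replicate 2 was not tested.

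**Figure D4:**
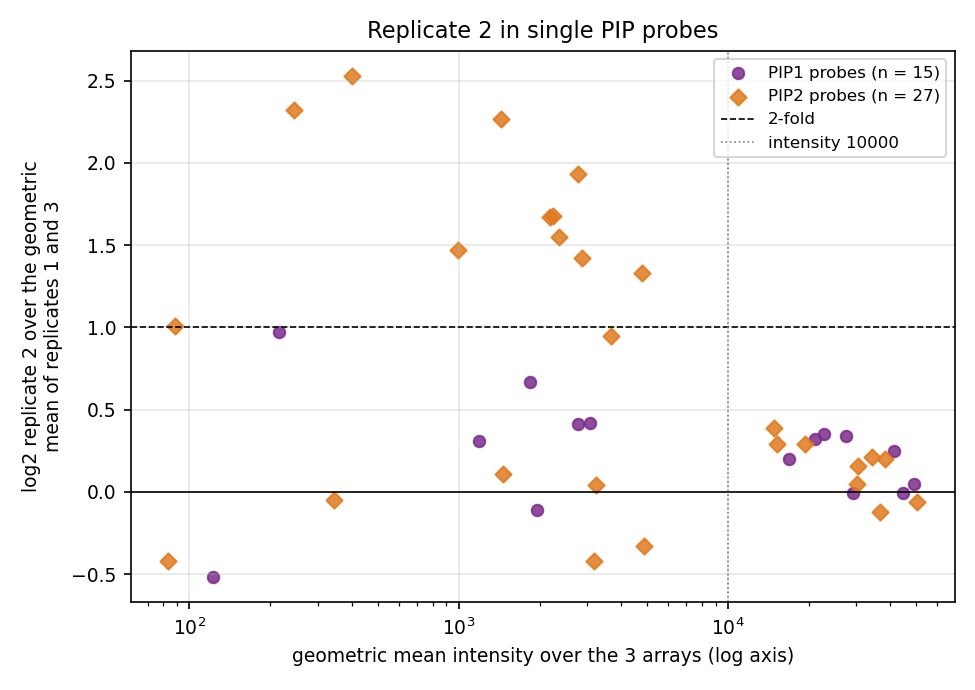
Log2 ratio of replicate 2 to the geometric mean of replicates 1 and 3 (y axis) against the geometric mean intensity over the 3 arrays (x axis, log scale) for the 42 PIP probes. The probes above 10000 lie between -0.12 and 0.39, and all 11 probes above the 2-fold line are dimmer PIP2 probes.

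The other aquaporins give a background for these values. By their names in the gene table or in the study, 19 genes with 36 transcripts belong to the tonoplast (TIP), nodulin 26-like (NIP) and small basic (SIP) intrinsic proteins, which sit in the vacuolar membrane, in several membranes and in the endoplasmic reticulum. Of these transcripts 21 were detected, 5 of 16 in TIP, 13 of 17 in NIP and 3 of 3 in SIP. Replicate 2 passed the others' mean by over 1 in 1 of the 36, GRMZM5G892338_T02, which the study names NIP4;2 and which is named here because its values single it out. Replicate 2 lay above the others' mean at all in 19, which were 6 of 16 in TIP, 12 of 17 in NIP and 1 of 3 in SIP. Its median difference was 0.28 in the PIP family, against 0.02 over these transcripts, -0.03 in TIP, 0.17 in NIP and -0.15 in SIP. The difference between families was not tested, since there is 1 array for each replicate and no other group.

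The transcripts whose deviations from their own mean most resembled those of GRMZM2G014914_T03 were sought among 8749 detected transcripts with a name in the gene table, by Euclidean distance over the 3 arrays. The nearest was GRMZM2G314546_T02 (hox3, a homeobox gene) at a distance of 0.01, with 10.84, 12.90 and 10.68 in replicates 1, 2 and 3. GRMZM2G553532_T01 (Tie-dyed2, a callose synthase gene) followed at 0.11 and GRMZM2G007260_T05 (listed under the marker name umc1478) at 0.12. With 3 arrays such likeness is common, and 181 detected transcripts lay within a distance of 0.5.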

How the data were processed

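Cy3-labelled root cDNA was hybridized by the authors to NimbleGen maize arrays, designed on transcripts of the B73 filtered gene set 5b. The deposited values are intensities on a linear scale, 1 per probe, extracted by the authors with NimbleScan. The labels name RMA, without a version. Intensities of equal rank were within 0.183% of each other between arrays, as after a quantile normalization, and the sources used here do not name the arrays that entered it. The value table of the series differed from the array files in 0 of the probes, which number 139000 beside the controls.

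With R 4.3.3 and limma 3.58.1 the intensities were corrected by normexp (offset 50), which in effect added about 17.0 to each, quantile normalized, turned into log2 values and summarized by median polish over each transcript's 2 or 3 probes. Median polish over 2 probes equals their mean. Counts and differences were computed in Python 3.11.15, and the steps were tested on simulated data. No test was run, since the 3 arrays form 1 group. The number of arrays limits the precision.

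The PIP genes, lists, thresholds and the rule for named transcripts were chosen with earlier results of these data known. The rule gives every transcript of GRMZM2G014914, the transcript of highest signal of each other PIP gene (a choice of what to print, not a ranking of mRNA) and any with a range over 1 in full, and the 3 named transcripts nearest to GRMZM2G014914_T03. Other aquaporins were found by a tip, nip or sip name in the gene table, and 3 such genes without an array identifier were not used. The gene listed as sip1 carries no aquaporin subfamily number and was left out, and with it 21 of 37 transcripts were detected. In the leaf list the names pdk1 and pep1 each matched more than 1 gene. The alternatives tried were other background, scaling and summary steps, removal of a gradient over the array, other thresholds and leaving out each replicate.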

Additional observations from a re-analysis of the deposited data

How the results depend on the processing

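The count of detected PIP transcripts was 16 under every alternative run, including the 99th percentile of the controls. The count of those with replicate 2 more than 1 above the others was 3, the same 3 transcripts, under every setting of background, scaling, gradient, probe summary, value table and left-out replicate that can give it. For these transcripts the difference ranged from 2.06 to 2.33 (GRMZM2G014914_T03), 1.60 to 1.93 (GRMZM2G092125_T02) and 1.11 to 1.73 (GRMZM2G047368_T01). At a difference of 0.5 the count was 4. The share of all array transcripts at 0.5 was not computed, but their 95th percentile for replicate 2 was 0.64. Leaving out each replicate in turn gave 0 to 3 PIP transcripts with a range over 1, with 0 when replicate 2 was left out, and a median SD of 0.10 to 0.23. The level of GRMZM2G014914_T03 was 9.76 to 10.93 in these settings, lowest without replicate 2. Of 136 values for single transcripts 130 moved by less than 1 SD and 6 by more. The 136 include the alternatives named below that could hardly change a value. Where a transcript was high in replicate 2, its SD holds that excess, so this count says little about stability. Without replicate 1 replicate 2 was the higher in 13 PIP transcripts, as GRMZM2G392975_T01 and GRMZM2G392975_T02 turned to -0.01 and -0.04, and under the other alternatives in 15. Several alternatives could hardly change a value. Leaving out the quantile step or scaling to the median moved no probe by more than 0.00058 on the log2 scale, the value table is identical, and the background step added 16.9 to 21.1 to each intensity, so they do not show how the values depend on normalization. Probe-by-probe counts and detection from deposited intensities were chosen after seeing the data. No paired analysis was possible because the arrays form a single group. Values near the control probes or near the top of the intensity scale are limited by the arrays.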
